A study of Rattus norvegicus with 6 samples.

Results

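Chemokine ligands, the secreted proteins that draw leukocytes into inflamed tissue, were measured in rat heart muscle cells exposed to bacterial endotoxin with and without knockdown of the RNA methyltransferase Mettl3. The members are all genes of the deposited table whose symbol begins with Ccl, Cxcl, Cx3cl or Xcl followed by a digit. There are 34 of them among 32623 genes, each with 1 entry, and the 23 that averaged 1 FPKM or more in the 6 libraries were compared between the groups. FPKM is the number of fragments per length of transcript and size of library, so levels of different genes can be set side by side. The last ligand inside that limit was Ccl11 at a mean of 2.03 FPKM and the first outside it was Cxcl17 at 0.948 FPKM.

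The cells were primary ventricular myocardial cells of Sprague-Dawley rats at postnatal day 1 to 3. Cells of several rats were pooled into 1 isolate, from which all cultures were made. The p-values therefore reflect only how these 6 samples scatter, and that scatter may be technical. The siNC group (3 libraries) received a control small interfering RNA and the siMettl3 group (3 libraries) one against Mettl3, for 24 h, and both groups then had lipopolysaccharide (LPS, bacterial endotoxin) for 6 h. Since every library analysed had received LPS, the levels below are those under LPS and not responses to it.

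Chemokines are small proteins that bind G protein-coupled receptors on leukocytes and other cells and steer their migration. Their families are named for the spacing of the first cysteines: CC ligands such as Ccl2 chiefly recruit monocytes and lymphocytes, CXC ligands recruit neutrophils or, for those induced by interferon, activated T cells, and the CX3C ligand Cx3cl1 (fractalkine) is made as a membrane-bound adhesion molecule that can be shed. In the heart, Toll-like receptor 4 detects LPS, and NF-kappaB and interferon-activated factors then switch on many chemokine genes in muscle cells, fibroblasts, endothelial cells and macrophages.

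Mettl3 itself measured 18.2, 17.2 and 15.3 FPKM in siNC replicates 1, 2 and 3 and 10.3, 10.6 and 9.9 FPKM in siMettl3 replicates 1, 2 and 3, so the labels and the targeted gene go together (log2 fold change -0.67, SE 0.0741, limma adjusted p = 0.00661). The libraries held 71202469 to 76668751 counts. The labelled cell type was visible in its markers: the 9 cardiomyocyte genes found summed to 19157 to 21840.1 FPKM in siNC and 16756 to 19402 FPKM in siMettl3. By limma 0 of the 9 passed, and by edgeR 1 was lower in siMettl3. Macrophage markers were present as well and were lower in siMettl3. The 15 listed genes summed to 89.8, 99.1 and 80.9 FPKM in siNC and to 47.6, 41.8 and 54.8 FPKM in siMettl3, 6 of the 7 tested members fell by limma (4.40% of all tested genes did), and 0 of the 15 had a count of 0 throughout. Markers of T, NK and B lymphocytes summed to at most 1.32 FPKM in any library, and 6 of the 10, among them Cd3e and Ms4a1, had a count of 0 in all libraries. In bulk RNA, fewer cells of a type and less RNA per cell cannot be told apart.

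The sequences shown here are the stretches just before the start of 8 ligand genes that hold a match to the kappaB consensus, the element that NF-kappaB binds. They are shown because these 8 genes lay on the same side in the comparison reported further on. The consensus was searched on both strands of the 250 bases before the start in the RefSeq promoter table (rat build GRCr8), which has an entry for 28 of the 34 ligands and 17 of the 23 tested. Ccl2, Ccl3, Ccl4, Ccl5, Ccl11 and Cxcl3 have none. Each window runs 5′ to 3′ along the gene, and capitals mark the match, with matches that overlap on both strands joined, between flanks of 20 bases.
Cxcl1: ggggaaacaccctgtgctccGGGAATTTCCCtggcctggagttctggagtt
Cxcl10, far match: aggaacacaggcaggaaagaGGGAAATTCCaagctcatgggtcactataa
Cxcl10, near match: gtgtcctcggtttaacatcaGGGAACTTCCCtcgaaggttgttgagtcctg
Ccl20: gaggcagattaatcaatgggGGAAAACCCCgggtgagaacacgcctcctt
Ccl7: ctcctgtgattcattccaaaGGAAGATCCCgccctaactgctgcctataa
Cxcl6: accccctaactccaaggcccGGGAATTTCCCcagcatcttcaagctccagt
Cxcl2: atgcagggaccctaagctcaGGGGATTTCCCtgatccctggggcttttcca
Cxcl11: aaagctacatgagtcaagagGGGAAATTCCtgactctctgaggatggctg
Ccl9: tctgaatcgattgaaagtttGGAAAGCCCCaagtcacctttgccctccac

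The windows lie on the plus strand at chr14:15988859-15988908 and chr14:15988918-15988968 for Cxcl10, chr9:91837050-91837099 for Ccl20, chr10:67514016-67514065 for Ccl7, chr14:15973634-15973683 for Cxcl11. They lie on the minus strand at chr14:17479375-17479425 for Cxcl1, chr14:17596475-17596525 for Cxcl6, chr14:17467299-17467349 for Cxcl2, chr10:68868954-68869003 for Ccl9. In Cxcl1 and Cxcl6 the same match, GGGAATTTCCC, began 84 and 88 bases before the start, and in Cxcl11 and the farther site of Cxcl10 the match was GGGAAATTCC, 74 and 187 bases before it. Of all 33469 promoters of that table, 6.33% held a kappaB match, against 8 of the 17 tested ligands and 8 of all 28 with an entry. Among the 9242 tested genes with an entry, 812 held a match. The core of the interferon-stimulated response element (ISRE), which interferon-activated factors bind, was in 3.41% of all promoters and in 1 of the 17, Cxcl10. TGANTCA, a pattern wider than the AP-1 element in that N is any base, was in 6.34% of all promoters. It was in 3 of the 17 (Cxcl10, Ccl7 and Cxcl11), and TATAAA was in 12.9% of all promoters and in 7 of the 17. A match is a description of the letters and not a measured binding site.

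By level, 3 ligands supplied most of the chemokine messenger RNA. Ccl2, Cxcl1 and Cxcl10 together made up 66.9% to 72.8% of the summed FPKM of all 34 ligands in every library. The sum was 2134, 2180.1 and 1956 FPKM in siNC and 1753, 1465 and 1953 FPKM in siMettl3, or 0.37% to 0.393% and 0.29% to 0.361% of all FPKM. The sums did not overlap between the groups, but those of siMettl3 replicate 3 and siNC replicate 3 were nearly equal. Ccl2, the main attractant of monocytes through the receptor Ccr2, ranked between 74 and 98 among all genes. Below these came Ccl20, Cx3cl1 and Ccl7 at means of 87.1 to 129.6 FPKM, then Cxcl16, Cxcl6, Ccl3, Cxcl2, Ccl4, Cxcl3, Cxcl11 and Ccl9 at 10.8 to 36.4 FPKM, and Ccl5, Cxcl12, Ccl12, Ccl22, Cxcl9, Ccl6, Ccl27, Ccl1 and Ccl11 at 2.03 to 7.05 FPKM.

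The other 11 ligands averaged below 1 FPKM, and 4 of them were detected in every library. Cxcl17, Cxcl13, Cxcl14 and Ccl19 had means of 0.785 to 0.948 FPKM with 22 to 141 counts in a library. Xcl1, the XC ligand of lymphocytes, and Ccl17, a ligand of Ccr4, had a count of 0 in 3 libraries each. Ccl25, Ccl28 and Ccl21, ligands of gut, mucosa and lymph nodes, had at most 12 counts in a library. The eotaxins Ccl24 and Ccl26, which attract eosinophils, had a count of 0 in all 6, which allows up to 3 counts in each (counting error only).

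**Figure D1:**
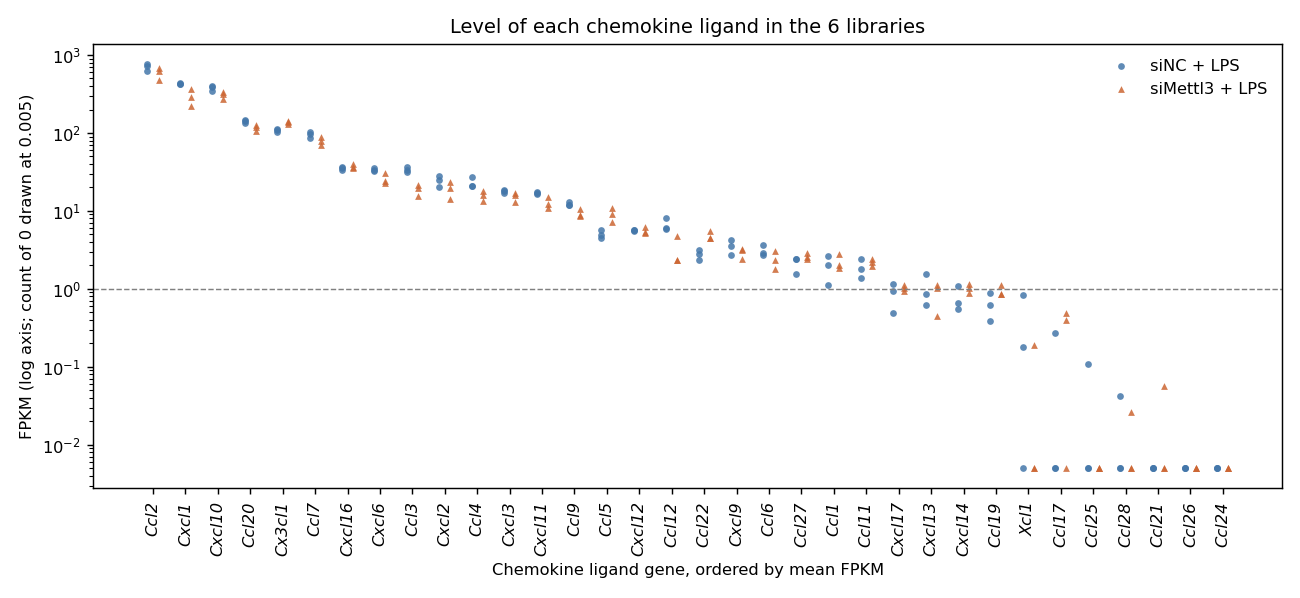
FPKM of each of the 34 ligands (log axis, genes ordered by mean) in the 3 siNC libraries (circles) and the 3 siMettl3 libraries (triangles), with a dashed line at 1 FPKM and a count of 0 drawn at the bottom. Ccl2, Cxcl1 and Cxcl10 stand above 200 FPKM in all libraries, and 11 ligands have a mean below the dashed line.

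Between the groups, 3 ligands rose in siMettl3 cells (Cx3cl1, Ccl5 and Ccl22) and 3 fell (Ccl3, Ccl9 and Ccl12), by limma on log2(FPKM + 1) with Benjamini-Hochberg adjustment over the 13105 genes tested. These are 13.0% and 13.0% of the 23 tested ligands, where 6.53% of all tested genes were higher and 4.40% were lower. Most of the remaining ligands leaned downwards without passing: 16 of 23 (69.6%) had a log2 fold change below 0, as had 36.3% of all tested genes. In 9 ligands (39.1%) every siMettl3 library lay below every siNC library, against 11.5% of tested genes, and in 3 (13.0%) every siMettl3 library lay above, against 26.4%. The median log2 fold change was -0.26 for the ligands and 0.067 for all tested genes. Without siMettl3 replicate 2 the ligands' median was -0.13. The shares of all genes depend on the scaling, and the shares without overlap were taken on the deposited FPKM alone. At an unadjusted p under 0.05, limma on that FPKM had 21.5% of all tested genes higher and 9.89% lower (3 and 10 ligands). After median-ratio scaling it had 12.5% higher and 14.9% lower (3 and 11 ligands). With that scaling the median over all tested genes was 0.0058, and 16 ligands were still below 0.

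The count of falls depended on the test. On the deposited counts, edgeR (quasi-likelihood) called the same 3 rises and 6 falls, namely Ccl3, Ccl9, Ccl20, Cxcl6, Cxcl10 and Cxcl11 (26.1%), where it called 3.40% of all genes higher and 6.59% lower. DESeq2 called the 3 rises and 10 falls (43.5%) against 7.71% and 10.6% of all genes. Ccl3, Ccl9 and the 3 rises were called by all 3 methods. Ccl12 was called by limma and DESeq2, and edgeR gave it an adjusted p of 0.0619.

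**Figure D2:**
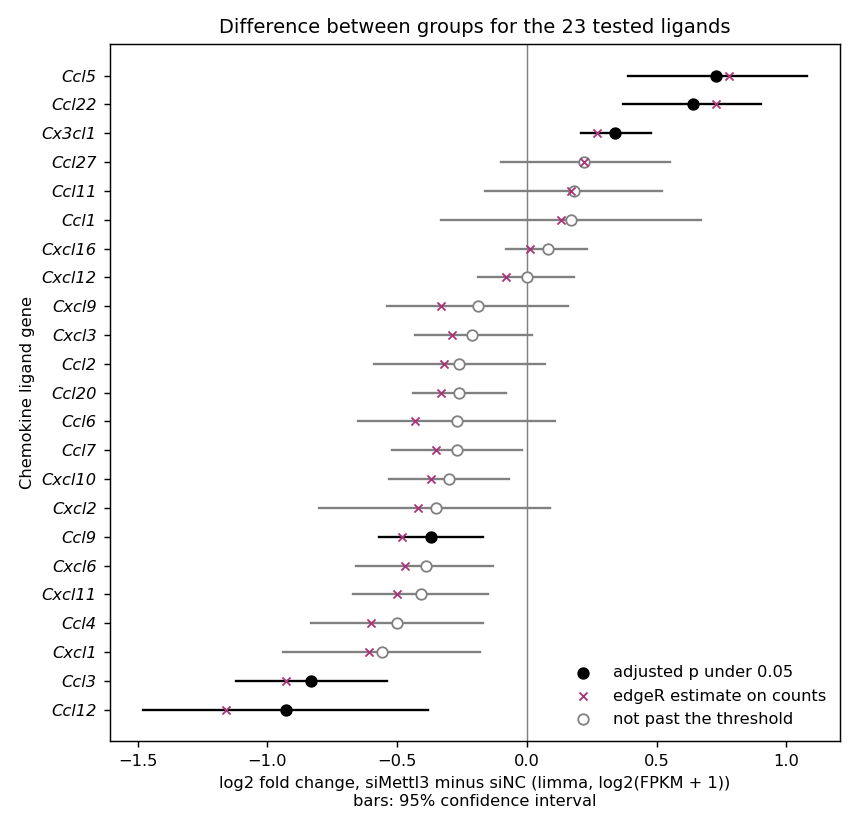
Log2 fold change, siMettl3 minus siNC, of each of the 23 tested ligands with its 95% confidence interval (limma; filled where adjusted p is under 0.05) and the edgeR estimate as a cross. The 3 rises are at the top, Ccl3 and Ccl12 at the bottom, and 16 of the 23 estimates are below 0.

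Cx3cl1, whose shed and membrane-bound forms act on the receptor Cx3cr1, measured 109, 103 and 112 FPKM in siNC and 131, 138 and 142 FPKM in siMettl3. The groups did not overlap, and the rise was small and even (127% of siNC, log2 fold change 0.34, SE 0.0585, limma adjusted p = 0.0203; edgeR 0.27, adjusted p = 0.032). The receptor Cx3cr1 had a count of 0 in all 6 libraries. Endothelial cells are a known source of Cx3cl1. Of the 5 tested endothelial markers Cdh5 and Tek rose and Egfl7 fell by limma, where 6.53% of all tested genes rose and 4.40% fell. The 9 endothelial markers found summed to 18.7 to 20.6 FPKM in siNC and 20.3 to 21.1 FPKM in siMettl3, with 0 of the 9 at a count of 0 throughout. Their part in the result was not tested.

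Ccl5 (RANTES), a late-phase attractant of T cells and monocytes, measured 5.61, 4.98 and 4.45 FPKM in siNC and 9.01, 7.22 and 11.0 FPKM in siMettl3. All siMettl3 libraries lay above all siNC libraries (181% of siNC, log2 fold change 0.73, SE 0.147, limma adjusted p = 0.0291; edgeR adjusted p = 0.0453). It rests on 178 to 449 counts in a library. Ccl22, which attracts regulatory T cells through Ccr4, measured 2.34, 2.83 and 3.11 FPKM in siNC and 4.49, 4.51 and 5.5 FPKM in siMettl3. Here too the groups were apart (175% of siNC, log2 fold change 0.64, SE 0.112, limma adjusted p = 0.0215; edgeR adjusted p = 0.0287).

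The rises lost their call in most fits that left out 1 library. Ccl22 was lost without siNC replicate 1 (adjusted p = 0.0783) or 2 (0.0589) and without siMettl3 replicate 1 (0.0686), 2 (0.0521) or 3 (0.0568). Cx3cl1 was lost in the same 5 fits (0.0838, 0.061, 0.063, 0.0534 and 0.0596 in that order). Leaving out any 1 siNC library ended the call of Ccl5 (0.0809, 0.0801 and 0.0627 for replicates 1 to 3), as did leaving out siMettl3 replicate 1 (0.0918) or 3 (0.0595). Ccl5 also did not pass with no filter on low values (0.0574). In all of these fits the 3 ligands stayed higher in siMettl3.

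Ccl3 (MIP-1 alpha), a macrophage product that acts on Ccr1, was lower in every siMettl3 library. It measured 31.4, 37.1 and 33.3 FPKM in siNC and 19.7, 15.4 and 21.2 FPKM in siMettl3. The siMettl3 mean was 55.2% of siNC (log2 fold change -0.83, SE 0.122, limma adjusted p = 0.0138; edgeR -0.93, adjusted p = 0.00943), and of the fits without 1 library only that without siMettl3 replicate 1 lost it (0.0533). Its neighbour Ccl4 (MIP-1 beta), an attractant of monocytes and T cells, measured 20.6, 27.3 and 20.6 FPKM and 16.0, 13.5 and 18.1 FPKM. Those groups did not overlap either, but Ccl4 did not pass (-0.50, limma adjusted p = 0.065; edgeR adjusted p = 0.0583). The ratio of Ccl3 to Ccl4 was 1.36 to 1.61 in siNC and 1.14 to 1.23 in siMettl3, and that of Ccl5 to Ccl3 went from 0.134 to 0.178 in siNC to 0.457 to 0.522 in siMettl3, both without overlap.

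Ccl9 (MIP-1 gamma), another ligand of Ccr1, measured 11.9, 12.9 and 12.0 FPKM in siNC and 8.84, 8.57 and 10.5 FPKM in siMettl3. The groups were apart by a narrow margin (75.7% of siNC, log2 fold change -0.37, SE 0.084, limma adjusted p = 0.039; edgeR -0.48, adjusted p = 0.0342). Ccl12, a monocyte attractant of the Ccl2 type, measured 5.89, 8.19 and 6.05 FPKM in siNC and 2.34, 2.36 and 4.78 FPKM in siMettl3. Replicate 3 of siMettl3 was closer to the siNC libraries than to the other siMettl3 libraries, and the fall (47.1% of siNC, log2 fold change -0.93, SE 0.232) passed only just (limma adjusted p = 0.0496). Without siMettl3 replicate 3 both genes passed (0.0349 and 0.0203). Ccl9 did not pass when any 1 siNC library was left out (0.108, 0.111 and 0.0677 for replicates 1 to 3), nor without siMettl3 replicate 1 (0.12) or 2 (0.0995), and neither did Ccl12 in these fits (0.114, 0.132, 0.0775, 0.135 and 0.126). With no filter on low values neither passed (0.0668 for Ccl9 and 0.0935 for Ccl12), and Ccl12 was also not called with a pseudocount of 0.1 or a filter of 0.5 FPKM.

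The macrophage markers were lower in siMettl3 as well. Lyz2, a macrophage lysozyme, measured 45.7, 47.1 and 40.5 FPKM in siNC and 22.4, 18.6 and 27.5 FPKM in siMettl3. The sum of the markers, given above, was lowest in siMettl3 replicate 2 and, of the siMettl3 libraries, highest in replicate 3. Single markers differed in this. Of the tested ones, Lyz2, Cd68 and Cd14 were lowest in siMettl3 replicate 2, Csf1r, Adgre1 and C1qa in replicate 1, and C1qb in replicate 3. Of the 16 ligands with a fold change below 0, siMettl3 replicate 2 was the lowest siMettl3 library in 14 and replicate 3 the highest in 15. Replicate 3 was also the highest siMettl3 library in 6 of the 7 ligands with a fold change above 0. The part of the macrophage markers in these results was not tested.

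**Figure D3:**
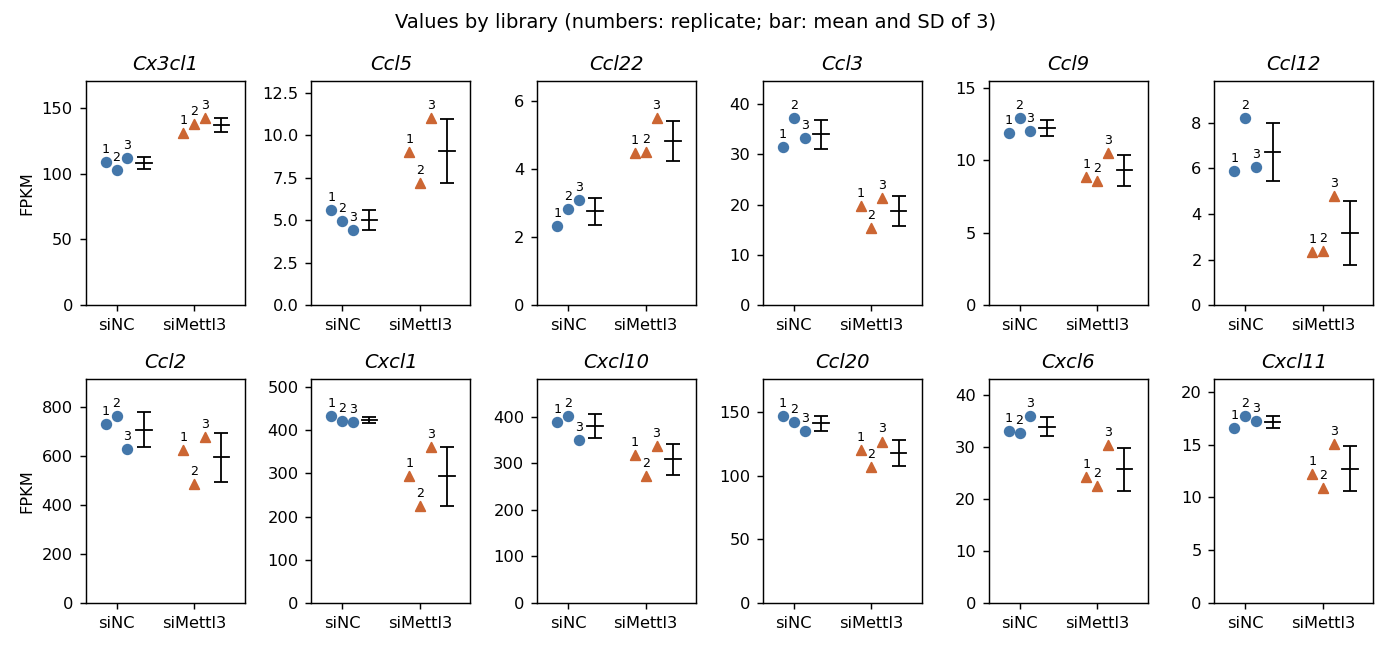
FPKM in each library (numbered by replicate) of the 6 ligands that passed the limma test (top row) and of 6 others (bottom row), with the mean and SD of 3 beside each group. Groups overlap for Ccl2 and for none of the other 11 plotted ligands, and siMettl3 replicate 3 is the highest siMettl3 library in all 12.

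The most abundant ligand, Ccl2, did not pass. It measured 730.2, 763 and 627 FPKM in siNC and 624, 484 and 676 FPKM in siMettl3, and siMettl3 replicate 3 lay above siNC replicate 3. The log2 fold change was -0.26 (95% confidence interval -0.59 to 0.07, limma adjusted p = 0.249), an interval that includes 0. Ccl7, next to Ccl2 on the chromosome and likewise a Ccr2 ligand, measured 97.5, 102 and 85.9 FPKM and 79.0, 69.2 and 88.4 FPKM (-0.27, adjusted p = 0.131). The ratio of Ccl2 to Ccl7 was 7.31 to 7.49 in siNC and 7.0 to 7.89 in siMettl3, so the spread of siMettl3 held that of siNC. Ccl20, the ligand of Ccr6, measured 147, 142 and 135 FPKM in siNC and 120.0, 107 and 127 FPKM in siMettl3. Its groups did not overlap, and the call differed by test (-0.26, limma adjusted p = 0.0711; edgeR -0.33, adjusted p = 0.0382).

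The CXC ligands that recruit neutrophils through Cxcr2 all had a lower mean in siMettl3, and 0 of the 4 passed by limma. The most abundant, Cxcl1, measured 433, 422 and 419 FPKM in siNC and 293, 224 and 362 FPKM in siMettl3. The siNC libraries were close together and the siMettl3 libraries far apart, and the difference of -0.56 on the log2 scale (SE 0.16) had limma adjusted p = 0.067 and edgeR adjusted p = 0.0537. Cxcl6 measured 33.1, 32.7 and 36.0 FPKM and 24.2, 22.6 and 30.5 FPKM (-0.39, limma adjusted p = 0.064; edgeR 0.0477). Cxcl2 (-0.35, adjusted p = 0.243) and Cxcl3 (-0.21, adjusted p = 0.184) had overlapping groups. Without siMettl3 replicate 3, Cxcl1 (0.0374) and Cxcl6 (0.0245) passed. At an unadjusted p under 0.05, limma had 10 of the 23 ligands lower, against 9.89% of all tested genes, and edgeR 12, against 15.0%.

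The interferon-induced ligands of Cxcr3, a receptor of activated T cells, were arranged alike. Cxcl10 measured 388, 401 and 350.1 FPKM in siNC and 317, 272 and 336 FPKM in siMettl3 (-0.30, SE 0.0954, limma adjusted p = 0.0864; edgeR -0.37, adjusted p = 0.0487). Cxcl11 measured 16.6, 17.7 and 17.2 FPKM and 12.2, 10.9 and 15.1 FPKM (-0.41, limma adjusted p = 0.0577; edgeR adjusted p = 0.0446), and without siMettl3 replicate 3 it passed by limma (0.0261). In both the groups were apart. Cxcl9 overlapped between the groups (3.52 ± 0.734 and 2.94 ± 0.466 FPKM, SD, n = 3; -0.19, limma adjusted p = 0.401).

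The remaining tested ligands had overlapping groups and did not pass. Cxcl12, the ligand of Cxcr4 that holds progenitor cells in place, measured 5.46, 5.66 and 5.69 FPKM in siNC and 5.41, 6.2 and 5.19 FPKM in siMettl3, with a 95% confidence interval of the log2 difference from -0.19 to 0.18. Cxcl16, a membrane-bound ligand of Cxcr6, measured 35.3 ± 1.78 and 37.4 ± 2.39 FPKM (SD, n = 3), with an interval of -0.08 to 0.23. Ccl27 (0.22, adjusted p = 0.304), the eotaxin Ccl11 (0.18, adjusted p = 0.416) and Ccl1 (0.17, adjusted p = 0.62) had 45 to 187 counts in a library. Ccl6, a Ccr1 ligand, measured 3.07 ± 0.486 and 2.4 ± 0.664 FPKM (SD, n = 3; -0.27, adjusted p = 0.289).

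Chemokine genes lie in groups along the chromosomes. By the table's coordinates (its build is not given in the sources used here), 5 groups that hold 20 of the 34 are described here. Ccl27, Ccl19 and Ccl21 also lie close together on chromosome 5, and Ccl24 and Ccl26 on chromosome 12. Of these, only Ccl27 was tested. On chromosome 19, Ccl17, Cx3cl1 and Ccl22 lie within 61.9 kb on the minus strand, and the 2 tested ones both rose. The tested genes that flank this group, Ciapin1 (0.19, adjusted p = 0.0986) and Arl2bp (0.20, adjusted p = 0.0586), did not pass. On chromosome 10, a group of 147 kb starts with Ccl5, which rose, and goes on with Ccl9, Ccl6, Ccl3 and Ccl4, whose estimates were all below 0. The other group there, of 126 kb, holds Ccl2, Ccl7, Ccl11, Ccl12 and Ccl1, of which Ccl12 alone passed. The 7 CXC ligands in 2 groups on chromosome 14 had estimates from -0.56 to -0.19, while the tested genes flanking them lay between -0.12 and 0.19. Neighbouring chemokine genes are similar in sequence, and how reads that match several of them were counted is not given in the sources used here, so values of close relatives may share reads.

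**Figure D4:**
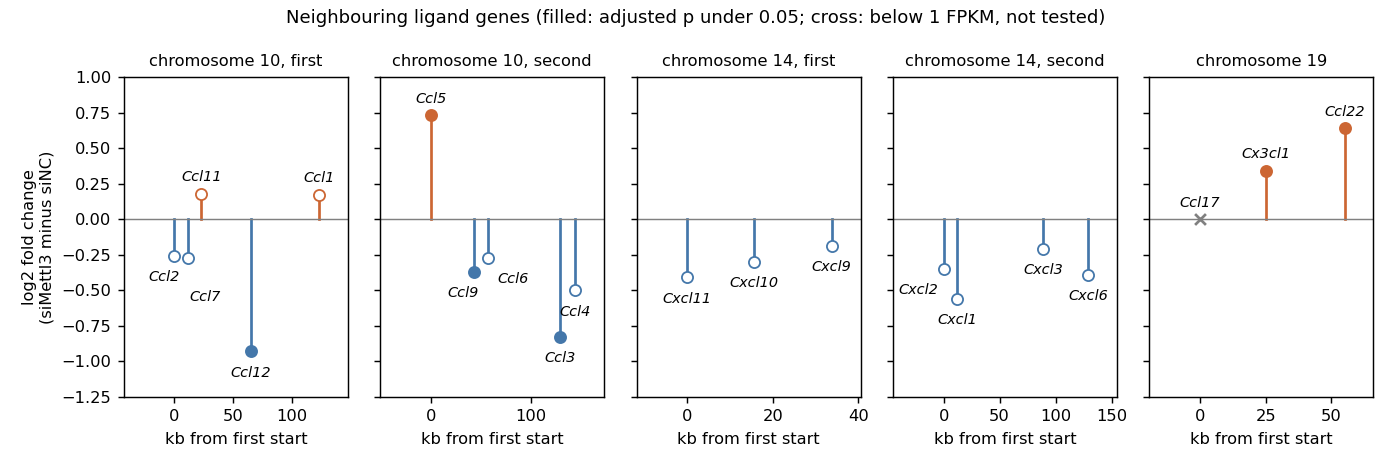
Log2 fold change, siMettl3 minus siNC (limma), of the ligand genes of 5 chromosomal groups against the distance in kb from the start of the first gene (filled: adjusted p under 0.05; cross: not tested). Both tested genes of the chromosome 19 group are above 0, all 7 of chromosome 14 are below 0, and Ccl5 is above 0 beside 4 neighbours below 0.

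The promoters offer another division of the ligands. The 8 with a kappaB match (Cxcl1, Cxcl10, Ccl20, Ccl7, Cxcl6, Cxcl2, Cxcl11 and Ccl9) had log2 fold changes from -0.56 to -0.26 with a median of -0.36, and Ccl9 was the one that passed. The 9 without a match ranged from -0.93 (Ccl12) to 0.64 (Ccl22) with a median of 0.08, and 4 of them were below 0. Over all tested genes with a promoter entry no such division was seen: the median was 0.07 for the 812 with a match and 0.07 for the 8430 without. All 8 stayed below 0 in each of 15 other settings of the analysis, and of all 23 tested ligands 15 did. Those settings reuse the same 6 libraries, and the motif was chosen after the fold changes were seen. The stable sign is therefore no separate evidence for this division. Of the 8, 5 are CXC genes of the chromosome 14 groups, so the 8 are not independent of one another.

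The promoters of 3 ligands are shown whole to set both kinds side by side: Cxcl10, which holds both elements, and Cx3cl1 and Ccl22, which rose and hold neither. Each line gives the 250 bases before the start, 5′ to 3′ along the gene, with matches to kappaB or the ISRE core in capitals.
Cxcl10: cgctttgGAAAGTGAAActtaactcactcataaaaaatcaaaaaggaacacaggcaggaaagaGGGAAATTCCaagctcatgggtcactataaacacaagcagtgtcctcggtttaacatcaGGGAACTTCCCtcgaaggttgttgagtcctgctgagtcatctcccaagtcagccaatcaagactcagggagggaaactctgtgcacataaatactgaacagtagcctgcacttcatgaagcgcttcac
Cx3cl1: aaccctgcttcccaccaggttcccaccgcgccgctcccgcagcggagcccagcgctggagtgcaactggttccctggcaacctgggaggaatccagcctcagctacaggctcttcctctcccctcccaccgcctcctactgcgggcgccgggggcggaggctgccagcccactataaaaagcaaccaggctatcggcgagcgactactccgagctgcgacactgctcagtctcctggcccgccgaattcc
Ccl22: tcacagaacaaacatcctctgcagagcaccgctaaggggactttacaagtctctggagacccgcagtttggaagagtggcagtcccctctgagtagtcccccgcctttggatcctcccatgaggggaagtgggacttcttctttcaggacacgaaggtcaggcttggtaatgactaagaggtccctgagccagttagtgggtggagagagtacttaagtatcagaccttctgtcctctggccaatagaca

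In GRCr8 these are chr14:15988816-15989065 on the plus strand for Cxcl10, and chr19:10242821-10243070 for Cx3cl1 and chr19:10270360-10270609 for Ccl22 on the minus strand. That no capitals stand in the Cx3cl1 and Ccl22 lines says only that these letters are not in this window.

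**Figure D5:**
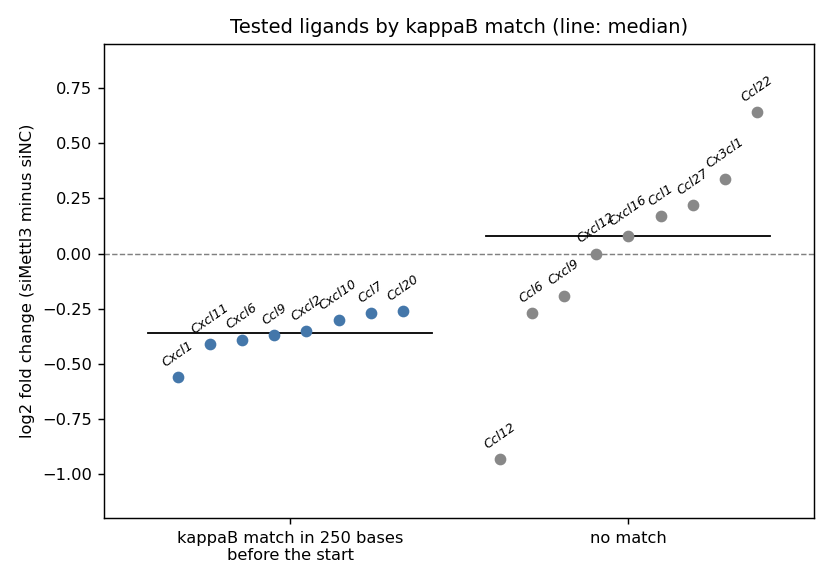
Log2 fold change, siMettl3 minus siNC (limma), of the 17 tested ligands with a promoter entry, divided by whether the 250 bases before the start hold a kappaB match, with the median of each set as a line. The 8 with a match lie between -0.56 and -0.26 and the 9 without between -0.93 and 0.64.

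Few of the receptors found for these ligands were expressed in the cultures. Of 23 listed receptors and scavengers 21 were found, 18 of them had a mean below 1 FPKM, and 5 had a count of 0 in all libraries. Ccr2, the receptor of Ccl2 and Ccl7, and Ackr1 were not found, so their levels cannot be given. The 3 tested were the pair of Cxcl12 receptors and Ccrl2. Cxcr4, the signalling receptor of Cxcl12, rose from 1.83, 1.85 and 2.1 FPKM to 3.7, 4.24 and 3.69 FPKM (log2 fold change 0.74, SE 0.087, limma adjusted p = 0.00697; edgeR 0.00812). Ackr3, which scavenges Cxcl12, fell from 8.24, 8.04 and 8.11 FPKM to 4.81, 4.6 and 5.32 FPKM (-0.63, SE 0.069, limma adjusted p = 0.00634; edgeR 0.00438). Both passed in all 6 fits that left out 1 library (limma adjusted p of 0.02 to 0.0413 for Cxcr4 and 0.0155 to 0.0385 for Ackr3), while the ligand Cxcl12 itself differed by less than its spread. Ccrl2, which binds the attractant chemerin, did not pass (-0.25, adjusted p = 0.112). Ccr7, which guides cells to lymph nodes, was too low to be tested (siNC 0.298 ± 0.141 and siMettl3 0.739 ± 0.152 FPKM, SD, n = 3).

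Of the genes that lead from LPS to chemokine transcription, 4 of 21 tested fell and 0 rose, with a median log2 fold change of -0.05 against 0.067 for all tested genes, of which 4.40% fell and 6.53% rose. Among those that fell were the LPS co-receptor Cd14 (6.22 ± 0.287 to 4.01 ± 0.21 FPKM, -0.53), also listed as a macrophage marker, and the interferon-pathway factors Stat2 (-0.30) and Irf7 (-0.30), with limma adjusted p = 0.0104, 0.0315 and 0.0442. The NF-kappaB subunits Rela (-0.11, adjusted p = 0.171), Nfkb1 (0.06, adjusted p = 0.454) and Relb (-0.03, adjusted p = 0.705) did not pass. Among 11 tested proteases and proteoglycans that cleave or hold chemokines, 2 fell and 0 rose by limma, and 3 fell by edgeR. By limma, 4.40% of all tested genes fell and 6.53% rose. The 2 that fell by limma were Mmp2, a gelatinase that trims Ccl7 and Cxcl12 (142 ± 0.579 to 92.7 ± 6.84 FPKM, -0.62, adjusted p = 0.00562), and Mmp14 (-0.27, adjusted p = 0.0362). The sheddases of Cx3cl1, Adam10 (0.31, adjusted p = 0.11) and Adam17 (0.13, adjusted p = 0.182), did not pass. Of 10 tested genes of receptor signalling, the inhibitory G protein subunit Gnai3 rose (0.21, adjusted p = 0.0371) by limma and not by edgeR (0.0999). Pf4, a platelet and macrophage chemokine that lies among the Cxcl genes of chromosome 14 but has another kind of symbol, measured 9.47, 14.9 and 9.17 FPKM and 7.47, 2.96 and 4.09 FPKM (-1.10, adjusted p = 0.0597).

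Markers of other cells in the cultures differed as well. Of 11 tested fibroblast markers 6 fell and 0 rose, against 4.40% and 6.53% of all tested genes, their sum going from 1514 to 1583 FPKM in siNC to 929 to 989 FPKM in siMettl3, and 4 of 8 smooth muscle and pericyte markers fell. Of 4 tested epicardial and mesothelial markers, Lrrn4 rose and Msln fell. Fibroblasts are a known source of Ccl2 and Cxcl1, and the part of these markers in the ligands' levels was not tested.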

How the data were processed

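RNA of 6 cultures was sequenced by Illumina protocols, per the labels. Per the file headers, the authors deposited for each gene and library an FPKM value and a count. FPKM is 0.0001 exactly where the count is 0 and was read as 0 when levels are given. The deposited counts are whole numbers without normalization. Per the submitters' processing notes, Bowtie 0.12.2 and the mouse build mm8 were named without a role. The aligner, annotation and build of the rat table are not given in the sources used here.

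The 13105 genes averaging 1 FPKM or more were tested for the difference siMettl3 minus siNC in limma 3.58.1 (intensity trend, 2-sided) in R 4.3.3 on log2(FPKM + 1), which compresses differences of low genes. The threshold was a Benjamini-Hochberg adjusted p of 0.05 over all genes tested. edgeR 4.0.16 and DESeq2 1.42.0 were run on the counts. The procedure was tested on simulated data. At the depths given, the spread between libraries and not counting error limits the precision of most ligands.

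The ligands and the 18 gene lists (183 of 191 symbols found) were chosen with earlier results of these data known. The values of every library are given for Ccl2, Ccl3, Ccl5, Cx3cl1, each ligand that passed and the 5 most abundant. Other ligands shown that way were chosen after their values were seen. Of other lists, up to 4 members that passed are named, except where a result is not reported here, with further ones chosen after their values were seen. Alternatives were another pseudocount, filter, scaling, test, the replicate number as a block and leaving out each library. Promoter sequences are RefSeq's for GRCr8, matched by symbol. The motifs were chosen after the fold changes were seen.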

Additional observations from a re-analysis of the deposited data

How the results depend on the processing

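The 23 tested ligands kept their sign in each of the 15 alternatives, except Cxcl12 and Ccl1. With 1 library left out, Cxcl12 ranged from -0.07 to 0.04, with values of 0.0, 0.01, 0.02 and 0.04 on the other side of 0 from the reported fit, and Ccl1 from -0.05 (without siNC replicate 3) to 0.34. The ligands lower in siMettl3 numbered 6 by edgeR, 10 by DESeq2, 1 with no filter on low values (Ccl3), 5 after median-ratio scaling and 6 after quantile normalization. With 1 library left out, the ligands that rose numbered 0 to 2, those that fell 0 to 6, and all genes called 206 to 861. Without siMettl3 replicate 1, 0 ligands passed by limma in either direction, with 3 higher and 9 lower at an unadjusted p under 0.05 (16.9% and 8.14% of all tested genes). All genes called numbered 1432 in the fit reported, 2394 by DESeq2 and 903 with no filter, where Ccl5 (adjusted p = 0.0574), Ccl9 (0.0668) and Ccl12 (0.0935) were lost. Median-ratio scaling took the median log2 fold change over all tested genes from 0.067 to 0.0058. The cause of these differences was not tested, beyond the fewer libraries or other genes tested that the alternatives bring.

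With the replicate number as a block, 0 ligands rose, 0 fell, 0 receptors and 6 genes in all were called by limma, where 3 ligands were higher, 9 were lower and 2 receptors differed at an unadjusted p under 0.05 (13.8% of all tested genes were higher and 7.50% lower), and Mettl3 kept -0.67 (adjusted p = 0.0726). Same-numbered libraries did not deviate together (correlations across genes of 0.035, -0.255 and -0.119 for numbers 1, 2 and 3), so the numbers are not taken to pair samples. The 11 ligands below 1 FPKM were not tested.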
